A study of Homo sapiens with 33 samples.

Results

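OCA2, SLC45A2, SLC24A5, TPCN2 and GPR143 encode transporters, a channel and a receptor of melanosomes and related organelles, and the binding of MITF around these 5 genes, of 19974 protein-coding genes in the RefSeq table used here, is described below. The genes were chosen by name and function. A peak was given to a gene when its summit lay within the span of the gene on hg38, extended by 5000 bp on both sides. Of all protein-coding genes, 18748 could be tested and these included all 5.

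Melanin is made and stored in the melanosome, a lysosome-related organelle of pigment cells, and its synthesis depends on the pH and the ion content of the organelle. OCA2 is a membrane protein needed for a chloride conductance that raises melanosomal pH, SLC45A2 is a transporter of the membrane that also keeps the organelle less acidic, and SLC24A5 is a potassium-dependent sodium/calcium exchanger. TPCN2 is a 2-pore cation channel of endolysosomes and melanosomes that lowers melanosomal pH, and GPR143 is a G-protein-coupled receptor of the organelle that is altered in ocular albinism. MITF, the basic helix-loop-helix leucine zipper factor of the melanocyte lineage, binds E-boxes of the form CACGTG and CACATG near many pigmentation genes.

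The libraries came from the established human melanoma line UACC-257, in which the DNA around HA-tagged protein was recovered by CUT&Tag, a method in which an antibody, here against HA, brings a transposase to its target. All groups are labelled as MITF knockdown and doxycycline-treated, and the 11 groups of 3 libraries are 9 MITF variants (E260A, N278D, Q261A, Y253A, A264C, K243A, G244E, rep263A and rep217A), wild-type MITF (WT) and a control called Empty. The names are given as in the titles, and the labels do not explain rep217A and rep263A. Replicates 2 and 3 of rep217A held the same list, as did those of rep263A, so each pair was counted once (31 distinct libraries, and n = 2 for each of these variants), and nothing in the labels says that replicates were separate cultures, so the p-values reflect no more than the spread between the libraries of a group, which may be technical.

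Each library was a list of 81488 to 300000 peaks. No read total was used, and the commonest background pileup that could be recovered from the deposited values served as relative depth. It averaged 0.773 to 1.27 in A264C, E260A, N278D, Q261A and Y253A, 0.46 in rep263A, 0.315 in rep217A, 0.177 in K243A, 0.13 in G244E, 1.15 in WT and 0.03 in Empty. Peaks were therefore ranked within each list by their −log10 q, with rank 1 the strongest, and the rank of the best peak in the window of a gene was compared. Ranks past 81329, the length of the shortest list, were set to 81330. A log2 rank gain is the difference between group means of the log2 rank, and it is positive where the first-named group lies nearer the top of the list. For the melanoma label, 10 genes of pigment enzymes, matrix and regulators were read. Of these, 9 had a peak among the 10000 strongest in every WT library, against 2 to 6 in Empty libraries. Of 10 housekeeping genes 8 did so in every WT library, and 6 to 8 in Empty libraries. Of 6 keratinocyte markers 0 did so in any WT library, and of 6 fibroblast and 6 lymphoid markers 1 each did so in every WT library. The WT counts do not set pigment genes apart from housekeeping genes, and the label itself was not tested by them.

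The promoters are shown because the strongest or second strongest site of each gene lay at an end of the gene or at its start. RefSeq sequences (GRCh38.p14), 250 bases before to 50 after the start, were at hand for 4 of the 5 genes. TPCN2 is at chr11:69048682-69048981 on the + strand, OCA2 at chr15:28099266-28099565 on the − strand, SLC24A5 at chr15:48120740-48121039 on the + strand and GPR143 at chrX:9765798-9766097 on the − strand. Each is written 5′ to 3′ along its gene, and capitals mark CACATG, on either strand (CATGTG where it lies on the other).
OCA2 promoter: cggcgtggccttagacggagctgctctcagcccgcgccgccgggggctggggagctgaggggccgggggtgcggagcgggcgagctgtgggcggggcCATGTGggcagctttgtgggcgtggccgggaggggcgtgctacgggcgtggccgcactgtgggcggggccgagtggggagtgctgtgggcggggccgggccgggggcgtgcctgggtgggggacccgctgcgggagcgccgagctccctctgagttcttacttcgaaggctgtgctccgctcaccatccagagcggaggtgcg
SLC24A5 promoter: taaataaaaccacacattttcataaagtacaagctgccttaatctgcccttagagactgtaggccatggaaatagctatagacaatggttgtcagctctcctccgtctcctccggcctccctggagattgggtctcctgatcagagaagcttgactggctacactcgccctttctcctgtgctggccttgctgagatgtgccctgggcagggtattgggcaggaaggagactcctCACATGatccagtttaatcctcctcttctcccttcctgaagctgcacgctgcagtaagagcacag
TPCN2 promoter: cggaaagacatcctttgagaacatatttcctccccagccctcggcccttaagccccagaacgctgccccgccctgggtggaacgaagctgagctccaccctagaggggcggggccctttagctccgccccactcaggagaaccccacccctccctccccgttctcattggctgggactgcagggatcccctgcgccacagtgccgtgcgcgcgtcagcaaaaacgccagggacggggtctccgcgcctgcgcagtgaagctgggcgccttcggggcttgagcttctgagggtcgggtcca
GPR143 promoter: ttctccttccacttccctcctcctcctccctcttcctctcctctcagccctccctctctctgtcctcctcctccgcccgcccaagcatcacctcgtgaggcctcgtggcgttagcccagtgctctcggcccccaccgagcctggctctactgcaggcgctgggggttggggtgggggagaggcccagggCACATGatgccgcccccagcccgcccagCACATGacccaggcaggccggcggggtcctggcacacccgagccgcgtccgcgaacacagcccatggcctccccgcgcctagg

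CACATG was found once in the OCA2 window, with its first base at position −153 from the start, once in the SLC24A5 window at −15 and 2 times in the GPR143 window at −61 and −33. In SLC24A5 it is the end of TCACATG. Forms with a fixed base after CACATG were not searched. CACGTG was in none of the 4 windows, and TPCN2 held neither motif. Both strands were searched, and TCACATG and TCACGTG overlap the shorter motifs. Of 35116 RefSeq promoter windows of the same length, 11.1% held CACATG, 7.26% CACGTG, 3.36% TCACATG and 3.71% TCACGTG. The GC content was 75.7% in OCA2, 51% in SLC24A5, 66% in TPCN2 and 70.3% in GPR143, against a median of 58.7% over all windows.

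At the promoters with a motif, the median distance from summit to motif was 37 to 48.5 bases. Whether this is nearer than in other windows of this length was not tested. In libraries other than Empty, the summit at the OCA2 start lay 92 to 117 bases upstream of the start in 28 libraries, at a median of 48.5 bases from the centre of CACATG. At SLC24A5 it lay 22 to 68 bases upstream in 27 libraries, at a median of 44.5 bases from the motif, and at GPR143 it lay 44 to 143 bases upstream in 28 libraries, at a median of 37 bases from the nearer of its 2 motifs. The summit at TPCN2 lay 93 to 137 bases upstream of the start in 28 libraries, in a window without either motif.

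**Figure D1:**
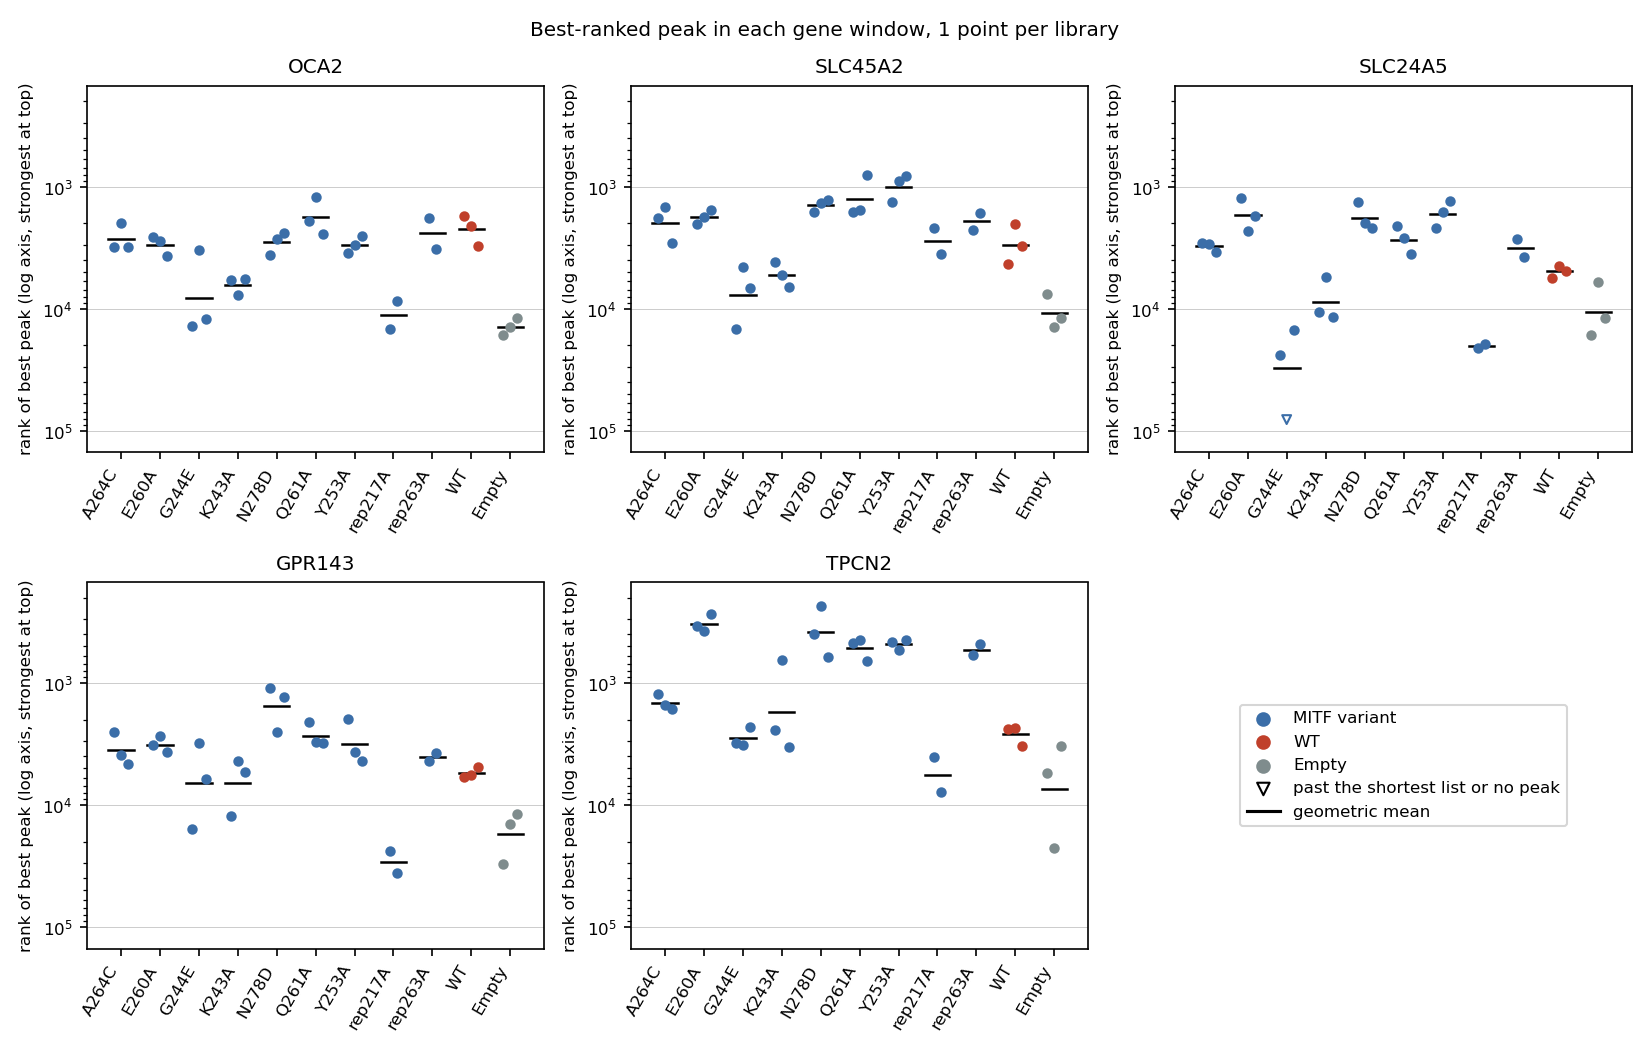
Rank of the best peak in each gene window (log axis, strongest at the top), 1 point per distinct library, with the geometric mean of each group as a line; variants are left of WT, and WT left of Empty. TPCN2 lies between rank 235 and 662 in all libraries of E260A, N278D, Q261A, Y253A and rep263A, above the 3 WT libraries at 2324 to 3272.

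With wild-type MITF, every one of the 5 genes carried a peak among the 10000 strongest of each library, and 4 ranked higher in WT than in Empty. Mean percentiles among all genes in WT, counted from the top, were 8.9 for OCA2, 10.1 for TPCN2 and 11.7 for SLC45A2. They were 17.6 for SLC24A5 and 19.0 for GPR143. The geometric mean rank in WT was 2245 for OCA2, 2624 for TPCN2, 2994 for SLC45A2, 4965 for SLC24A5 and 5459 for GPR143, and all 15 values lay between 1758 and 5887. In Empty the best peak in the same windows ranked between 3279 and 30418.5, with far less signal behind each rank. The deposited fold enrichment of the best peaks was 9.35 to 21.7 in WT, against 2.83 to 4.35 in Empty, and their −log10 q was 135 to 259 in WT, against 1.37 to 2.54 in Empty. In WT over Empty the log2 rank gain was 2.65 ± 0.41 for OCA2 (SE, limma with Benjamini-Hochberg adjustment over all tested genes, adjusted p = 2.24e-05), 1.86 ± 0.40 for SLC45A2 (adjusted p = 0.000716), 1.66 ± 0.49 for GPR143 (adjusted p = 0.00933) and 1.49 ± 0.55 for TPCN2 (adjusted p = 0.033). For SLC24A5 it was 1.10 ± 0.46 (adjusted p = 0.0591) and did not pass the threshold of 0.05. Of all genes, 17.6% were called higher in WT than in Empty and 23.1% lower, and the median gain over all genes was −0.20, against 1.66 over the 5. Ranked by fold enrichment, TPCN2 and SLC45A2 were lower in WT than in Empty by 2.06 and 1.06 (adjusted p = 0.0084 and 0.0287), so the direction of both rests on ranking by −log10 q. Without 1 replicate of every group, the TPCN2 call was lost for replicates 1 or 2, the SLC45A2 call for replicate 2 and the GPR143 call for replicate 3. The OCA2 and GPR143 calls were lost when ranked by fold, and that of SLC45A2 in the gene span alone. SLC24A5 passed when ranked by fold (2.73, adjusted p = 0.0019) and around the gene ends alone (1.87, adjusted p = 0.0247), and turned to −1.61 in the gene span alone (adjusted p = 0.00333).

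Differences between WT and Empty were also tested at single sites. A site was a cluster of summits of the 20000 strongest peaks of any library, and the windows held 29 of 86093 such sites. Only Empty brought 12 of the 29 into the set, in 6 cases in the long OCA2 gene. Of the 29 sites, 16 were higher in WT than in Empty and 1 was lower, where 24.2% and 2.9% of all sites were so called. The lower one lies at −1524 bp from the SLC24A5 start, at chr15:48119341-48119592. There the WT libraries had ranks 50180.5, 78819.5 and 87729.5, against no peak, rank 6116 and rank 11896.5 in the Empty libraries. This site entered the set through peaks of Empty and K243A and not of WT, which favoured such a call. The recovered pileup of the Empty peaks was 3 and 2. Mean fold was 4.20 in WT and 3.29 in the Empty libraries with a peak. The call was lost without replicate 2 or 3. At the sites next to a gene start or end, the log2 rank gain of WT over Empty was 4.76 at SLC45A2, 4.58 at TPCN2, 3.79 at GPR143, 3.62 at SLC24A5 and 3.52 at OCA2 (limma over all sites, adjusted p from 1.4e-09 to 1.31e-06). Most Empty libraries had no peak there, or one past the shortest list, and were set to rank 81330. Ranked by fold, the gain was 1.58 at the SLC45A2 end and 1.92 at the TPCN2 start, both still called, and the call at the OCA2 start was lost (0.79, adjusted p = 0.101).

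**Figure D2:**
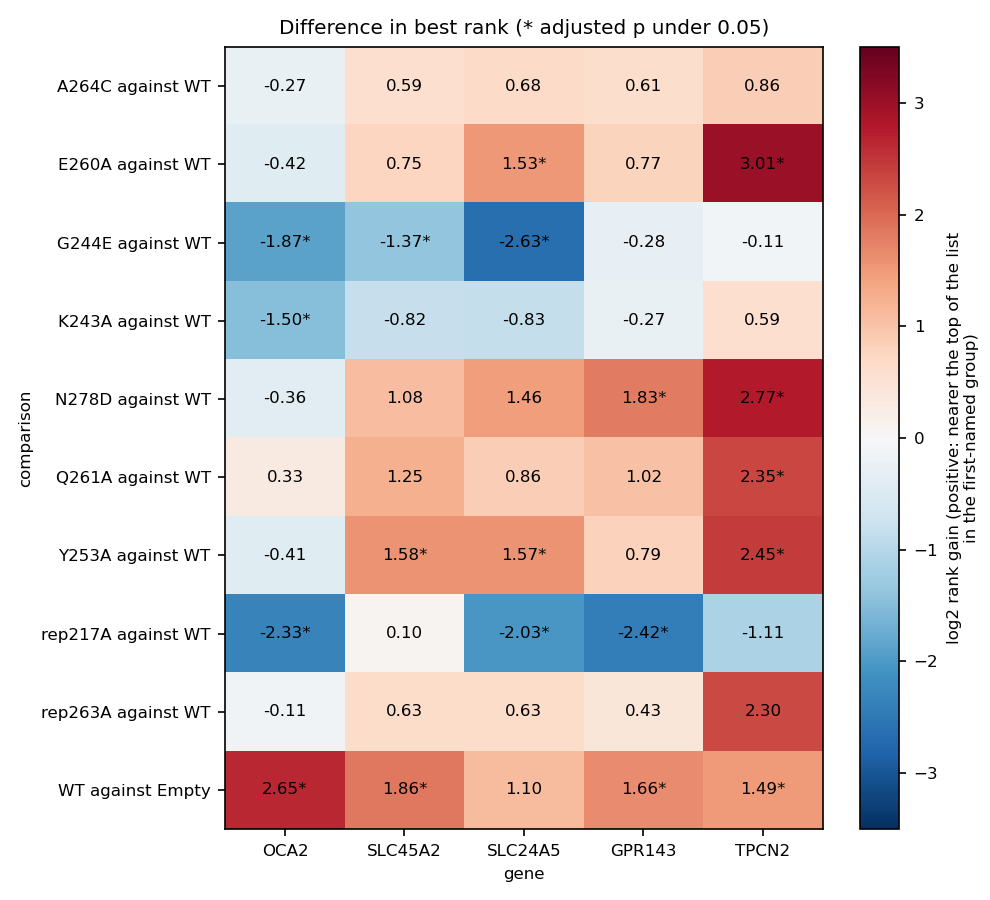
Log2 rank gain of each comparison (rows) at each gene (columns), red where the first-named group lies nearer the top of its lists and blue where it lies lower, with an asterisk at adjusted p under 0.05. TPCN2 is red in 4 called comparisons of a variant with WT and in WT over Empty, and OCA2, SLC24A5 or GPR143 is blue in G244E, K243A and rep217A.

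The 9 variants fell on either side of WT, and not in the same way at each gene. Of 45 comparisons of a variant with WT, 8 were called higher and 7 lower. TPCN2 was higher in 4 variants and lower in 0, OCA2 was lower in 3 and higher in 0, SLC24A5 was higher in 2 and lower in 2, and SLC45A2 and GPR143 were each higher in 1 and lower in 1. The shares of all genes called higher and lower were 5.1% and 3.97% in E260A, 10.3% and 7.34% in G244E, 2.13% and 2.57% in K243A, 3.22% and 4.17% in N278D, 1.46% and 1.32% in Q261A, 3.19% and 3.53% in Y253A, 7.34% and 9.68% in rep217A, and 0.469% and 0.827% in rep263A. The called differences of E260A, N278D, Q261A and Y253A were all toward higher ranks, and those of G244E, K243A and rep217A were all toward lower ones. The last 3 variants are also the shallowest, with a background pileup of 0.13 to 0.315 against 1.15 in WT. All 15 calls also passed when Empty was left out of the fit and every other library was scaled to a common depth of 0.11. More of all genes were called there than without scaling, such as 1780 against 956 higher in E260A and 2290 against 1376 lower in G244E. A call was thus easier to reach in that fit. This scaling multiplied the pileup and background of peaks already called, and drew no reads and dropped no peaks. It cannot show which peaks a shallower library would have given, and whether depth accounts for the calls was not tested. Ranked by fold enrichment, 2 of the 15 passed, and without replicate 1 of every group, also 2. Where groups are said below not to overlap, to lie clear of WT or to lie wholly above or below it, this is description only. The share of all genes or sites that separate so was not computed.

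OCA2 was lower in G244E, K243A and rep217A than in WT, and was not called in the other 6 variants. The gene spans 380308 bp (chr15:27719008-28099315, − strand), far more than the others. The best ranks were 13790, 3298.5 and 12199 in G244E, 5794, 7754 and 5742.5 in K243A, and 14750 and 8644 in rep217A, against 1758, 2087.5 and 3083 in WT. All 8 variant libraries named here lay lower in their lists than all 3 WT libraries. Its log2 rank gain was −1.87 ± 0.41 in G244E (SE, limma over all genes, adjusted p = 0.00266), where 7.34% of all genes were called lower, −1.50 ± 0.41 in K243A (adjusted p = 0.0368), where 2.57% were, and −2.33 ± 0.46 in rep217A (adjusted p = 0.000781), where 9.68% were. In the other 6 variants the gain lay between −0.42 and 0.33. The SE rests on 1 spread shared by all groups. The SD of the log2 rank was 1.14 in G244E, 0.55 in rep217A, 0.25 in K243A and 0.42 in WT, so the SE and p-value do not carry the wider scatter of G244E. None of the 3 calls passed when only the 5000 bp around either gene end were used, when peaks were ranked by fold, or without replicate 1, and that of K243A was lost without any 1 of the 3 replicates and with ranks left as in each list (adjusted p = 0.0512).

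Among the OCA2 sites called lower in these variants was one deep within the gene. It lies 165534 bp inside the gene at chr15:27933586-27933975, and it held the best OCA2 peak in all 3 WT libraries. Its ranks were 15104, 48279 and 15820 in G244E, 8522.5, 7754 and 13200 in K243A, and 31046.5 and 21410 in rep217A, against 1758, 2087.5 and 3083 in WT. At this site the log2 rank gain was −3.33 ± 0.56 in G244E (SE, limma over all sites, adjusted p = 9.95e-05), −2.09 ± 0.56 in K243A (adjusted p = 0.0263) and −3.52 ± 0.63 in rep217A (adjusted p = 0.000138), where 9.52%, 3.95% and 8.67% of all sites were called lower. The groups did not overlap in any of the 3 comparisons. The G244E call passed under all 6 settings tried for single sites, that of rep217A was lost when ranked by fold and without replicate 1, and that of K243A was lost in these and without replicate 3.

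At the OCA2 start the variants were not called apart from WT. The start site (chr15:28099307-28099532) had ranks 13790, 3298.5 and 12199 in G244E, 5794, 10509.5 and 5742.5 in K243A, and 14750 and 8644 in rep217A, against 7005, 5302 and 5331 in WT, with the G244E libraries on both sides of the WT range, 2 K243A libraries inside it and 1 below it, and both rep217A libraries below it. In E260A, Q261A and Y253A the start site ranked 2597 to 3681, 1899 to 4831 and 2995 to 3500, all nearer the top than in WT, and none of these differences passed the test. The best OCA2 peak of E260A was at the start in all 3 libraries, where WT had it at the inner site. Another site, 3059 bp inside the gene (chr15:28096139-28096373), was lower in G244E (−1.39 ± 0.41, SE, limma, adjusted p = 0.019) and in rep217A (−1.43 ± 0.45, adjusted p = 0.0303). Both calls were lost when ranked by fold and without replicate 3, that of G244E also without replicate 2 and that of rep217A without replicate 1.

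**Figure D3:**
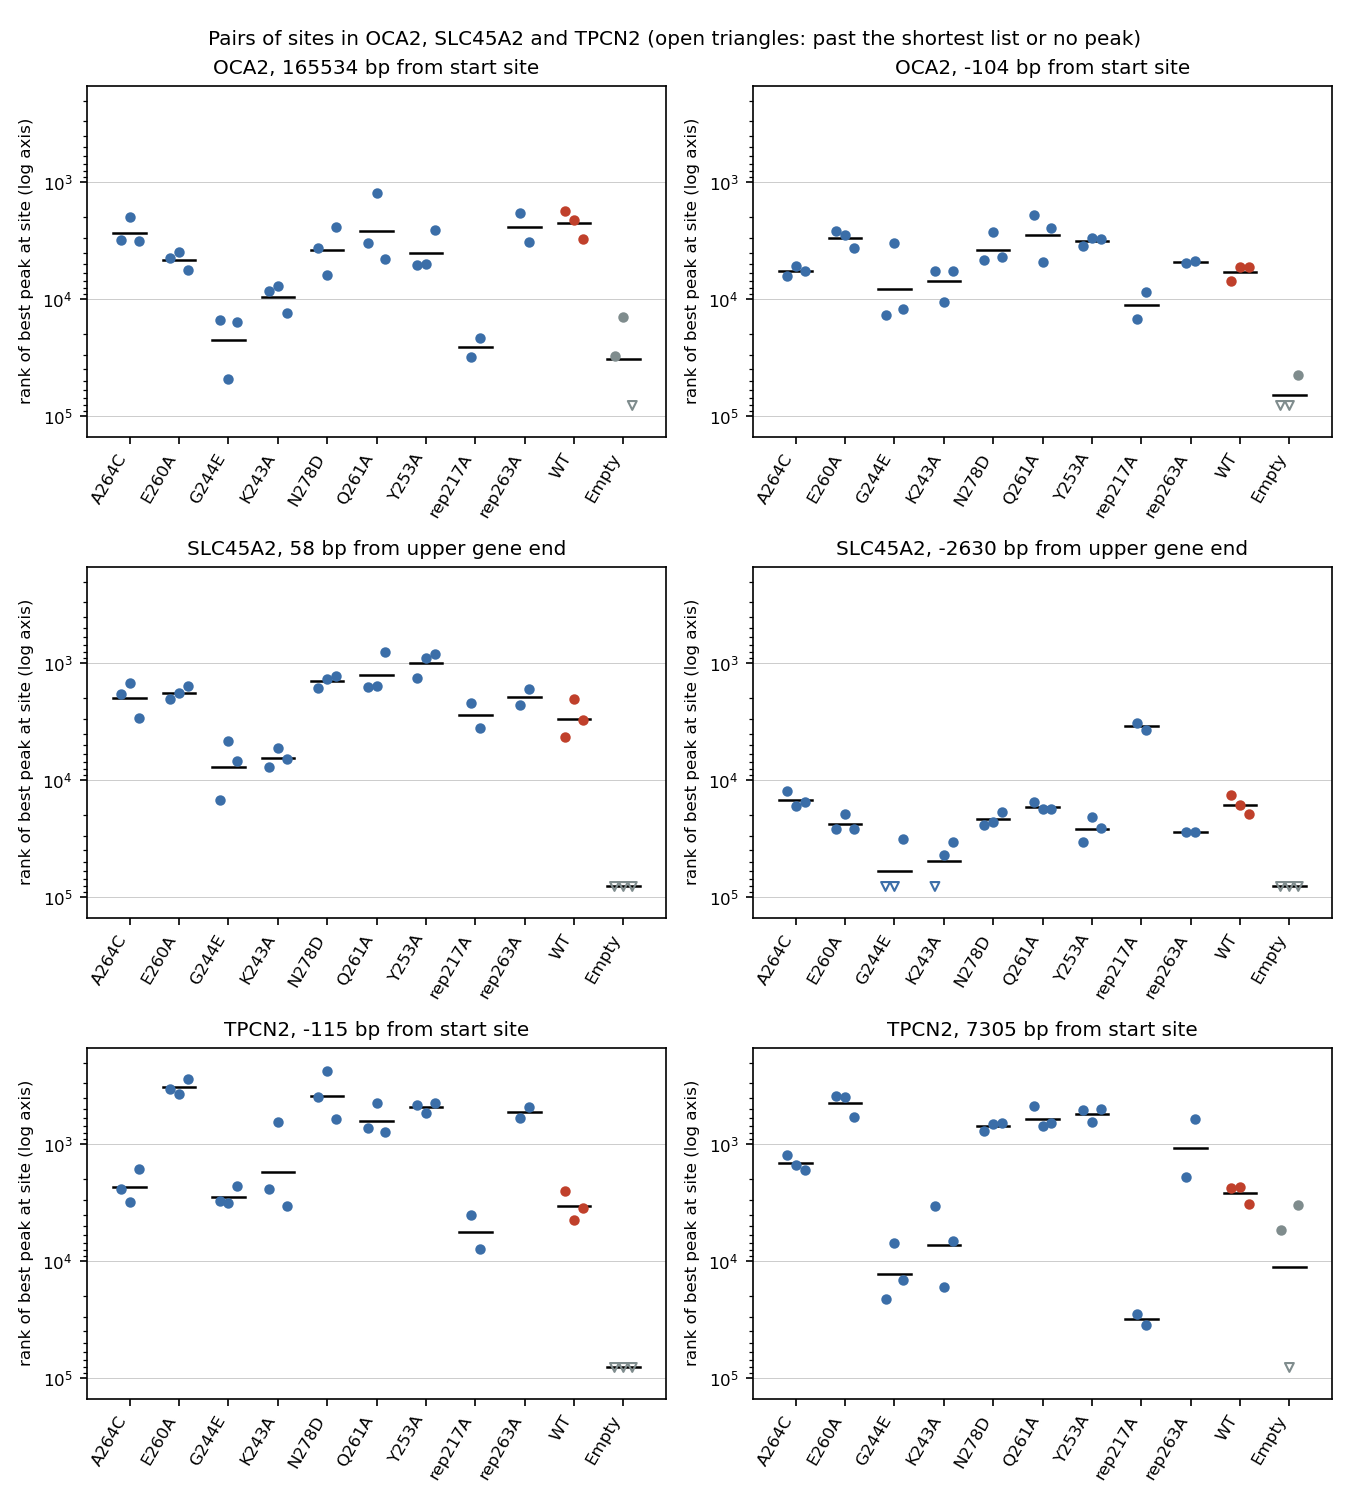
Ranks at a pair of sites in OCA2, SLC45A2 and TPCN2 (log axis, strongest at the top), 1 point per distinct library, lines at the geometric mean, and open triangles for libraries with no peak or a rank past the shortest list; negative distances at SLC45A2 lie inside the gene. The inner OCA2 site is at 15104 to 48279 in G244E and 21410 to 31046.5 in rep217A, against 1758 to 3083 in WT, and the inner SLC45A2 site is at 3223 and 3725 in rep217A, against 13314 to 19370 in WT.

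SLC45A2 ranked highest in Y253A and lowest, among the variants, in G244E. The gene lies at chr5:33944623-33984693, and its window also holds an end of AMACR, an enzyme of branched-chain fatty acid metabolism, whose span begins at 33986165. The best ranks were 1335, 905 and 827 in Y253A and 14759.5, 4583.5 and 6813 in G244E, against 4297, 2042 and 3058 in WT, with no overlap in either comparison. The gain on the log2 rank scale was 1.58 ± 0.40 in Y253A (SE, limma over all genes, adjusted p = 0.0145), where 3.19% of genes were called higher, and −1.37 ± 0.40 in G244E (adjusted p = 0.0191). Q261A and N278D had gains of 1.25 and 1.08 that did not pass (adjusted p = 0.105 and 0.12). Both calls were lost around the gene ends alone, in the gene span alone and without any 1 of the 3 replicates, and ranked by fold the Y253A gain was −0.00381 (adjusted p = 1) and the G244E gain turned to 1.73 (adjusted p = 0.00163). The gene span without its flanks gave −1.53 for Y253A (adjusted p = 0.0368), and the leading summits lay at a median of 93.5 bp beyond the gene end.

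The leading SLC45A2 site sits across the upper end of the gene at chr5:33984566-33984937, and a pair of weaker sites lies inside the gene next to it. The one at −2630 bp from that end, at chr5:33981909-33982216, had ranks 3223 and 3725 in rep217A, against 13314, 16480 and 19370 in WT. It was higher in rep217A by 2.22 ± 0.38 (log2 rank gain with SE, limma over all sites, adjusted p = 8.63e-05), where 5.64% of sites were called higher. Under the 6 settings for single sites the gain was 2.05 to 2.32, and without replicate 1 or 2 it rests on 1 rep217A library. In the other 8 variants this site ranked between 12487 and 43729, apart from 2 libraries of G244E with no peak there and 1 of K243A with a peak past the shortest list. It was lower than in WT in G244E (−1.88 ± 0.34, adjusted p = 0.000245) and K243A (−1.61 ± 0.34, adjusted p = 0.00437), and ranked by fold neither passed. The K243A call was also lost without replicate 1 or 2. The other inner site, at −263 bp from the end at chr5:33984311-33984549, had ranks 17903 to 21391 in N278D and 13773 to 18419 in Y253A, against 5576 to 5861 in WT, and no variant passed the test there. In Y253A and N278D the site across the gene end lay nearer the top than in WT and the site next to it lay lower, and of these differences the Y253A gain at the gene end was the one called.

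SLC24A5 showed differences in both directions in its window. The gene lies at chr15:48120990-48142672 on the + strand, next to MYEF2, whose span begins at 48134632 within the window. The best ranks were 1250, 2333 and 1746 in E260A and 2190, 1607 and 1323.5 in Y253A, against 5626, 4455 and 4882 in WT. In G244E they were 23868.5, 112590 and 14938.5, and in rep217A 21010.5 and 19548.5. All 4 groups lay clear of the WT range (share of all genes not computed), the first pair above it and the second pair below. Their log2 rank gains were 1.53 ± 0.46 in E260A (SE, limma over all genes, adjusted p = 0.0362), where 5.1% of genes were called higher, and 1.57 ± 0.46 in Y253A (adjusted p = 0.0375), and −2.63 ± 0.46 in G244E (adjusted p = 0.000276) and −2.03 ± 0.51 in rep217A (adjusted p = 0.00663). N278D, with ranks 1345, 1983 and 2181, reached a gain of 1.46 ± 0.46 and did not pass (limma, adjusted p = 0.0530). These SEs rest on 1 spread shared by all groups, while the SD of the log2 rank was 1.26 in G244E and 0.17 in WT.

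The SLC24A5 peak in nearly all of these libraries was the one at the promoter shown above, at chr15:48120822-48121068. Tested as a site, it was called higher in E260A (limma over all sites, adjusted p = 0.0496) and not in Y253A (adjusted p = 0.0521). It was called lower in G244E and rep217A (adjusted p = 0.000247 and 0.00804). With the replicate block the E260A site call was lost (adjusted p = 0.0629). In replicate 2 of G244E no peak was called at the promoter, and its best peak, with a fold of 2.61, lay within the gene. At the promoter the fold enrichment averaged 21.7 ± 1.81 in E260A and 21.6 ± 1.72 in Y253A, against 21.0 ± 0.67 in WT (SD, n = 3 each), so the groups that differed in rank overlapped in fold. By contrast, it was 7.65 and 8.35 in rep217A. Ranked by fold, the E260A and Y253A gains were −0.0147 and −0.27 (adjusted p = 1 for both), while G244E and rep217A still passed. The E260A call was also lost without replicates 1 or 3, and that of Y253A without any 1 of the 3 replicates and with the replicate block (adjusted p = 0.0517). Both were lost with ranks left as in each list (adjusted p = 0.0645 and 0.0678). The rep217A call was lost without replicate 1. In the gene span alone, which leaves out the promoter summits, none of the 4 passed and the G244E gain turned to 0.99 (adjusted p = 0.119), and around the gene ends alone only that of G244E passed.

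TPCN2 was called higher in more variants than any other of the 5 genes. It lies at chr11:69048932-69090597 on the + strand. The best ranks were 338, 374 and 274 in E260A, 397, 235 and 611 in N278D, 472, 441 and 662 in Q261A, 463, 539 and 445 in Y253A, and 593 and 478 in rep263A, against 2377, 2324 and 3272 in WT. All 14 of these variant libraries lay above all 3 WT libraries (share of all genes not computed), as did the A264C libraries at 1230, 1508 and 1643. On the log2 rank scale the gain was 3.01 ± 0.55 in E260A (SE, limma over all genes, adjusted p = 0.000735), 2.77 ± 0.55 in N278D (adjusted p = 0.00204), 2.35 ± 0.55 in Q261A (adjusted p = 0.0178) and 2.45 ± 0.55 in Y253A (adjusted p = 0.00597), where 5.1%, 3.22%, 1.46% and 3.19% of all genes were called higher. In rep263A it was 2.3 ± 0.61 and did not pass (adjusted p = 0.0632), where 0.469% of genes were called higher. All 4 calls were lost when ranked by fold and without replicate 1, those of N278D and Q261A in the gene span alone, and those of Q261A and Y253A without replicate 3. Of the 18748 genes, 0 were called in either direction in A264C (limma), and 1.16% had an unadjusted p under 0.05, none of them among the 5.

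The order of the group means at TPCN2 had a gap, which a K243A library crossed. From E260A through N278D, Y253A, Q261A and rep263A the geometric mean rank was 326 to 532, with overlapping libraries, then came A264C at 1449.8 with none overlapping rep263A, and K243A, WT and G244E followed at 1743.8, 2624 and 2823 with overlapping libraries. rep217A at 5655 did not overlap G244E. K243A was spread widely, with ranks 2435, 651 and 3345, of which 651 lies within the range of Q261A. Over the 5 genes, 0 to 2 of the 10 neighbouring pairs of groups in such an order did not overlap, a count without a share over all genes beside it.

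Of the 3 highest-ranked TPCN2 sites, the promoter, which holds no CACATG or CACGTG, was called higher in 5 variants and the others in 1 each. At that site (chr11:69048695-69048939) the ranks were 338, 374 and 274 in E260A, 397, 235 and 611 in N278D, 723, 441 and 781 in Q261A, 463, 539 and 445 in Y253A, and 593 and 478 in rep263A, against 2536, 4419 and 3484 in WT. None of these 14 libraries overlapped WT. Log2 rank gains were 3.38 ± 0.49 in E260A, 3.14 ± 0.49 in N278D, 2.82 ± 0.49 in Y253A, 2.67 ± 0.55 in rep263A and 2.43 ± 0.49 in Q261A (SE, limma over all sites, adjusted p = 1.61e-05, 0.000119, 0.000293, 0.0167 and 0.00328), where 4.73%, 3.49%, 4.08%, 0.434% and 2.31% of all sites were called higher. The fold enrichment at the promoter averaged 14.9 ± 0.58 in E260A, 13.6 ± 0.94 in N278D, 12.9 ± 0.11 in Y253A and 12.6 ± 1.02 in Q261A, against 11.8 ± 1.26 in WT (SD, n = 3 each), and it was 14.7 and 15.0 in rep263A. In fold, N278D, Y253A and Q261A overlapped WT, while E260A and rep263A lay above it. Ranked by fold instead of by −log10 q, the promoter gain was 0.56 in E260A, −0.14 in N278D, −0.12 in Q261A, −0.17 in Y253A and 1.18 in rep263A, and none passed (adjusted p = 1 for each). The calls of E260A, N278D and Y253A at the promoter passed without each replicate in turn, that of Q261A was lost without replicate 1 and that of rep263A without any of the 3.

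In WT the best TPCN2 peak was not at the promoter but 7305 bp inside the gene, at chr11:69056112-69056362, in all 3 libraries. The ranks at this inner site were 390, 392 and 581 in E260A, against 2377, 2324 and 3272 in WT, a log2 rank gain of 2.56 ± 0.73 (SE, limma over all sites, adjusted p = 0.0271). They were 21209.5, 7027.5 and 14471.5 in G244E and 28309 and 35200.5 in rep217A, and the gains were −2.30 ± 0.73 (adjusted p = 0.0341) and −3.59 ± 0.82 (adjusted p = 0.00208). At the promoter, G244E had ranks 3073.5, 3205.5 and 2282.5, which overlap those of WT, and rep217A had 4061.5 and 7874.5. The inner site of G244E and rep217A was thus lower than in WT while their promoter site was not called different. Whether the differences at the 2 sites differ from each other was not tested. All 3 calls at the inner site were lost when ranked by fold and without replicate 1, and those of E260A and G244E also without replicate 3.

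Differences were also called at weaker TPCN2 sites. One at 3572 bp inside the gene (chr11:69052320-69052687) had ranks 6267, 6170 and 8253 in N278D and no peak in either rep217A library, against 20213, 18861 and 19999 in WT. It was higher in N278D (1.53 ± 0.36, SE, limma over all sites, adjusted p = 0.0091) and lower in rep217A (−2.05 ± 0.41, adjusted p = 0.000493). Ranked by fold both calls were lost, and that of N278D also without replicate 1 or 3. A weak site 6134 bp inside, named here after its values were seen, was lower than in WT in 6 variants and higher in 0. Its gains were −1.26 to −1.75, with rep217A and G244E at the limit set by rank 81330.

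GPR143 was higher in N278D and lower in rep217A. The gene lies at chrX:9725346-9778602, and the RefSeq promoter starts at 9765847, inside that span. The best ranks were 1105, 2498 and 1311 in N278D and 23689.5 and 35942.5 in rep217A, against 5887, 5659.5 and 4884 in WT, with no overlap. The rank gain (log2) was 1.83 ± 0.49 in N278D (SE, limma over all genes, adjusted p = 0.0217) and −2.42 ± 0.55 in rep217A (adjusted p = 0.00276). The N278D call was lost when ranked by fold, around the gene ends alone and without any 1 of the 3 replicates, and that of rep217A when ranked by fold and without replicate 2.

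The promoter of GPR143, with its 2 CACATG, held the best peak of every library other than replicate 2 of rep217A and the Empty libraries. At chrX:9765791-9766090 the fold enrichment averaged 19.9 ± 2.12 in N278D and 15.2 ± 0.18 in WT (SD, n = 3 each), and it was 7.30 and 3.01 in rep217A. The ranks of rep217A there were 23689.5 and 136613, and the log2 rank gain, with the second held to 81330, was −3.01 ± 0.58 (SE, limma over all sites, adjusted p = 0.000326). A site near the other end of the gene, 36492 bp from the start at chrX:9729193-9729516, ranked 15580.5, 13345.5 and 16398 in Q261A, against 32592, 39704 and 36307.5 in WT, and was called higher there (1.26 ± 0.30, adjusted p = 0.0135). This site entered the set through peaks of E260A, Q261A and rep263A among the 20000 strongest, and not through WT. That choice favoured a higher call in Q261A. The same site had no peak in either rep217A library and was called lower there (−1.17 ± 0.34, limma, adjusted p = 0.0146). The rep217A call at the promoter was lost when ranked by fold and without replicate 2, that of Q261A at the other site when ranked by fold and without replicate 2 or 3, and that of rep217A there without replicate 1 or 2. G244E and K243A had GPR143 ranks of 3090 to 15617.5 and 4350 to 12305, which straddle the WT values, and gains of −0.28 and −0.27.

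**Figure D4:**
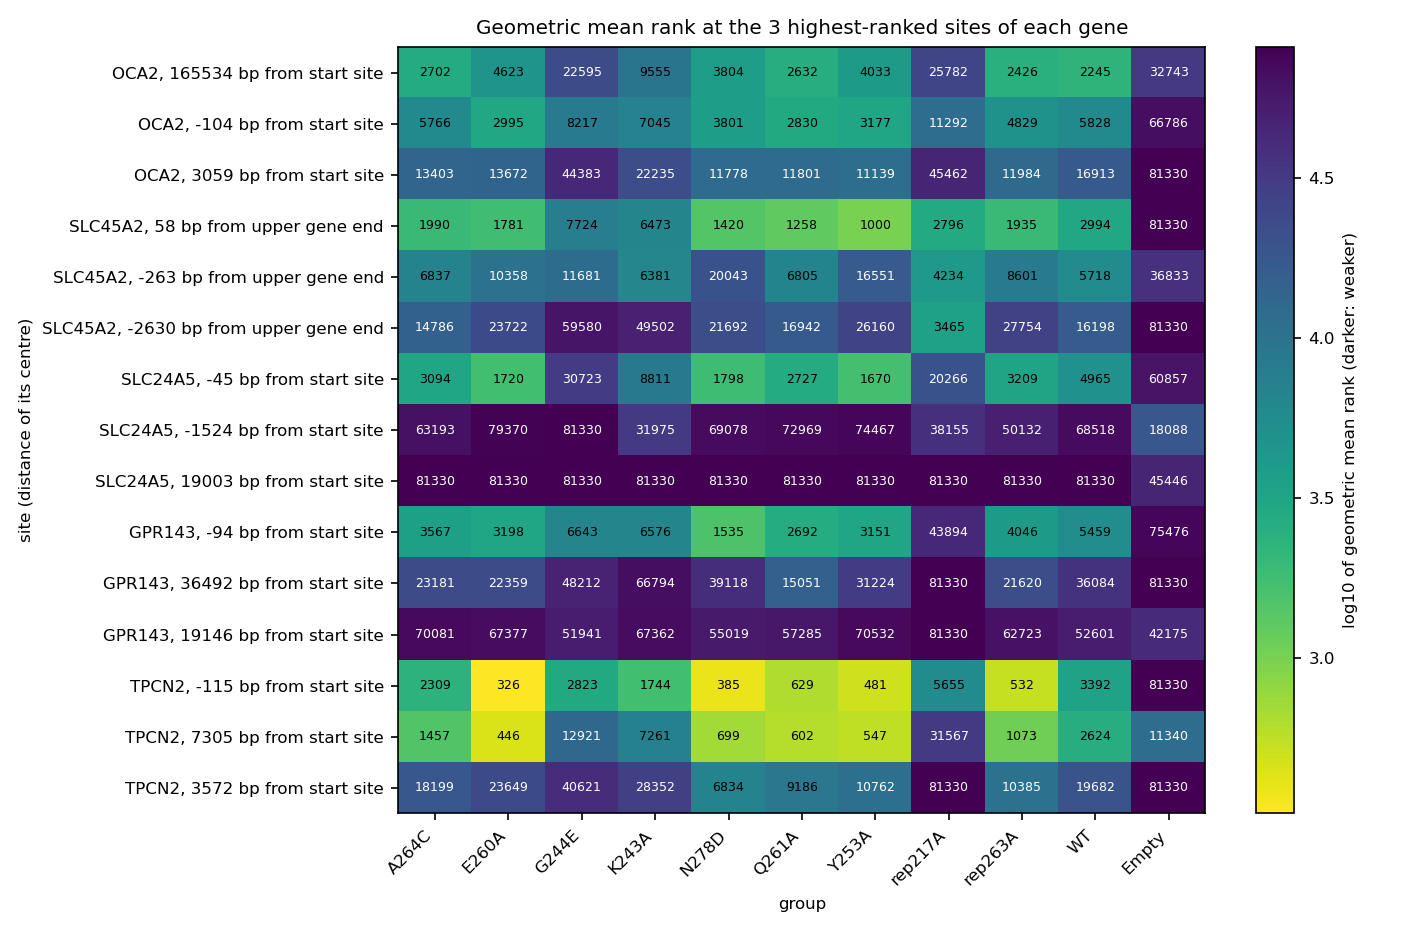
Geometric mean rank at the 3 sites of highest mean rank of each gene (rows, with the distance of the site centre) in each group (columns), on a log10 colour scale where darker is weaker and 81330 stands for no peak within the shortest list. The promoter site of TPCN2 is at 326 to 629 in 5 variants and at 3392 in WT, and the inner OCA2 site is at 22595 in G244E and 25782 in rep217A, against 2245 in WT.

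G244E and rep217A were each called lower at 3 genes, of which SLC24A5 and OCA2 were called in both, SLC45A2 in G244E and GPR143 in rep217A. The difference between these variants was not tested. SLC45A2 had ranks 2189 and 3571 in rep217A, both inside the WT range, with a gain of 0.10 ± 0.45, and GPR143 had a gain of −0.28 ± 0.49 in G244E, against −2.42 ± 0.55 in rep217A. TPCN2 had gains of −0.11 ± 0.55 in G244E and −1.11 ± 0.61 in rep217A and was not called in either. The median gain over the 5 genes was −1.37 in G244E and −2.03 in rep217A, against 0.19 and 0 over all genes. A264C and rep263A, with 0 genes of the 5 called (limma; 0 and 1 of the 5 at an unadjusted p under 0.05), had medians of 0.61 and 0.63, against 0 over all genes.

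At the level of sites, 12 differences between a variant and WT were called higher and 21 lower over the 29 sites and 9 variants. Over all 86093 sites, 4.73% were called higher and 2.51% lower in E260A, 3.37% and 9.52% in G244E, 0.793% and 3.95% in K243A, 3.49% and 1.76% in N278D, 2.31% and 0.532% in Q261A, 4.08% and 1.32% in Y253A, 5.64% and 8.67% in rep217A, and 0.434% and 0.22% in rep263A. In A264C 0 sites were called (limma), and 1.85% had an unadjusted p under 0.05. Of the 27 calls at the 3 highest-ranked sites of each gene, 27 passed at the common depth, 8 passed without each replicate in turn and 5 passed when ranked by fold. Of the 29 sites, 17 were among the 20000 strongest peaks of a group other than Empty: 5 each in OCA2 and TPCN2, 3 in SLC45A2, and 2 each in SLC24A5 and GPR143.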

How the data were processed

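CUT&Tag with anti-HA was run on 33 libraries of UACC-257 cells, and each peak list holds 1 library on hg38, as the labels state. Tools named in the submitters' processing notes are MACS2, Bowtie2 (2.3.4.3) and bcl2fastq (2.20.0.422). The sources used here do not say whether a control library entered the calling. The authors deposited for each peak a fold enrichment, a −log10 p, a −log10 q, a summit offset and a score, and the score was not used. Peaks outside chromosomes 1 to 22 and X were left out.

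Genes came from the RefSeq table of hg38, which gives spans without exons. Best ranks by −log10 q were compared on the log2 scale with limma 3.58.1 (R 4.3.3, trend, two-sided moderated test) over all 31 distinct libraries, which share 1 estimate of the spread. The SE of a gene or site is therefore the same for all comparisons with equal library numbers, however widely a group is scattered. P-values were adjusted by Benjamini-Hochberg over all 18748 genes or 86093 sites of a contrast. Sites link summits of the 20000 strongest peaks of any library within 200 bp, with a margin at each end. From the deposited fold and p, pileup and background were recovered for 100% of peaks, to within 1% of the deposited −log10 p, in the form MACS2 uses. Depth scaled in this way served as an alternative, beside other windows, ranking by fold, other rank limits, a replicate block and leaving out replicates. The fit and the recovery were tested on simulated data. The text names all 5 genes, the 3 sites of highest mean rank per gene, and up to 6 pigment genes of the other lists. Members and lists were chosen with earlier results of these data known. Python 3.11.15 and pandas 2.3.3 were used.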

Additional observations from a re-analysis of the deposited data

How the results depend on the processing

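Ranked by fold enrichment, 5 gene differences between a variant and WT were called higher and 2 lower (8 and 7 by −log10 q), 1 was higher in WT than in Empty (4), and 17 site differences were called (33). The gene span alone gave 3 higher, and the ends alone 2 lower. Without replicate 1, 2 or 3 there were 0 to 5 higher, 2 to 5 lower and 20 to 28 sites. The common depth, with Empty left out, gave 11 higher, 7 lower and 45 sites. The replicate block gave 7 higher (SLC24A5 in Y253A was lost), 7 lower, 4 over Empty and 33 sites. Same-numbered libraries had a median residual correlation of −0.0016, with a highest value of 0.31. Libraries with different numbers had a median of −0.0015 and a highest value of 0.22. A median cannot show whether the numbers pair some of the libraries. Ranked by fold, these gene gains changed sign: SLC24A5 to −0.0147 in E260A and −0.27 in Y253A, TPCN2 to 2.59 in G244E, 2.08 in rep217A and −2.06 in WT over Empty, and SLC45A2 to 1.73 in G244E, 1.84 in K243A, −0.00381 in Y253A and −1.06 in WT over Empty. So did these site gains: OCA2 at 3059 bp to 0.36 in G244E and 0.0739 in rep217A, SLC45A2 at its end to 1.73 in G244E and −0.00381 in Y253A, SLC45A2 at −2630 bp to 0.0885 in G244E and 0.20 in K243A, SLC24A5 at its start to −0.0147 in E260A, TPCN2 at its start to −0.14 in N278D, −0.12 in Q261A and −0.17 in Y253A, and TPCN2 at 7305 bp to 0.94 in G244E and −1.39 in WT over Empty. In the span alone, SLC24A5 turned to 0.99 in G244E and −1.61 in WT over Empty, and SLC45A2 to −1.81 in N278D and −1.53 in Y253A; around the ends alone, GPR143 turned to −0.12 in N278D. The cause was not tested. At the depth of G244E, K243A, rep217A or Empty, a peak that was not called may still have been present.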

Other observations

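The other genes of the melanosome were read the same way, for comparison with the 5. In WT against Empty, 6 of 10 pigment enzymes, matrix proteins and regulators were higher and 0 lower, namely DCT, a melanin-synthesis enzyme, by 5.61 on the log2 rank scale, GPNMB by 3.90, MLANA by 3.86, PMEL, the amyloid matrix protein of the melanosome, by 3.81, the channel TRPM1 by 2.36 and the copper transporter ATP7A by 2.32 (limma over all genes, adjusted p from 4.98e-09 to 0.000231). Of 18 genes of melanosome transport and biogenesis, 9 were higher and 1 lower, and of 13 paralogues and related organelle channels, 5 were higher and 2 lower. Of 10 housekeeping genes, 2 were higher and 2 lower, of 6 keratinocyte genes 0 higher and 1 lower, of 5 lymphoid genes tested 1 higher and 1 lower, and of 5 fibroblast genes tested 1 higher and 0 lower.

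In G244E against WT, 6 of the 10 pigment genes were lower and 0 higher, 4 of the 18 transport genes lower and 1 higher, and 3 of the 13 paralogues lower and 0 higher. In rep217A against WT, 4 pigment genes were lower and 1 higher, 5 transport genes lower and 2 higher, and 3 paralogues lower and 3 higher. E260A, N278D and Y253A each had 2 pigment genes higher; E260A and N278D had 1 lower and Y253A had 2 lower. Q261A had 2 pigment genes higher and 0 lower, K243A 0 higher and 3 lower, rep263A 1 higher and 0 lower, and A264C 0 in either direction (limma).

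The gene whose group-mean log2 best rank followed that of a member most closely over the 11 groups was HTR1D for OCA2 (Pearson's r = 0.988), PLCB4 for SLC45A2 (0.99), RAMP1 for SLC24A5 (0.975), RAB33A for GPR143 (0.966) and PTCD3 for TPCN2 (0.973). The next were DCLK1 and NCOA7 for OCA2, RFX8 and C5orf22 for SLC45A2, LOC105375012 and ESYT3 for SLC24A5, LYPD6B and CARD16 for GPR143, and SNRNP200 and DHRS4 for TPCN2, at r of 0.958 to 0.982. Between the 5 genes themselves r ran from 0.67 for SLC45A2 and GPR143 to 0.888 for GPR143 and TPCN2. The genes outside the 5 were picked as the highest r among 16139 to 16141 candidates over 11 groups. The values between the 5 were not picked, so the former cannot be set against the latter. All points share the libraries and their depth.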
